A study of Chlorocebus sabaeus with 45 samples.

Results

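Genes that mark basophils and eosinophils were followed in the blood of vervet monkeys during the first weeks of quarantine. The list held 9 gene symbols, chosen by name but with earlier results of these data known: CPA3, HDC, MS4A2, FCER1A, GATA2, ENPP3, IL5RA, CCR3 and SIGLEC8. A row was found for 8 of the 9 among the 33994 rows of each table, and all 8 were among the 18753 genes with enough fragments to be tested. SIGLEC8, a sialic acid-binding receptor of eosinophils and mast cells, was not analysed here.

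The animals were 15 wild-born juvenile males of Chlorocebus sabaeus from St. Kitts, 1 per troop, each sampled on day 0, day 3 and day 14, which gave 45 libraries of whole-blood RNA. Day 0 samples were taken in the field at capture under ketamine and xylazine, and the animals were then moved to a primate facility and housed individually. The later samples were taken in the facility under dexmedetomidine and midazolam, so that time since capture cannot be told apart from place and sedation in the comparisons with day 0. Days 3 and 14 shared the place and the sedatives. No animal stayed in its troop as a control, and the day 14 sample is given as day 15 in the series' design text.

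Basophils and eosinophils are rare granulocytes of the blood that take part in allergic inflammation and in defence against parasites. Basophils, like tissue mast cells, carry the high-affinity receptor for IgE, store histamine and proteases in granules, and release IL-4. Eosinophils depend on IL-5, follow eotaxins through the receptor CCR3, and hold peroxidase and basic proteins in their granules. In both lineages GATA factors take part in differentiation. Glucocorticoids are known to lower the number of circulating eosinophils and basophils.

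Values were FPKM, fragments normalised to gene length and to the fragments of the library, divided here by a trimmed-mean (TMM) factor for each library, and they are called scaled FPKM. Libraries held 13216275 to 31469332 fragments on genes. Changes are log2 ratios of scaled FPKM + 0.1 with their standard error (SE) from limma, fitted with the animal as a block. The adjusted p covers all 18753 genes, and a gene was called at an adjusted p under 0.05. In bulk blood, fewer cells of a type and less RNA per cell cannot be told apart.

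On day 14, 4 of the 8 genes were higher than on day 0 and none was lower: CPA3, FCER1A, MS4A2 and ENPP3. Their mean scaled FPKM rose from 19.7 ± 10.8 to 39.6 ± 19.1 for CPA3, from 20.9 ± 10.2 to 37.5 ± 18.2 for FCER1A, from 5.45 ± 2.65 to 8.66 ± 3.33 for MS4A2 and from 0.507 ± 0.247 to 0.839 ± 0.389 for ENPP3 (SD, n = 15). These genes encode a granule protease, the IgE-binding and signal-amplifying chains of the IgE receptor, and an ectoenzyme of activated basophils. IL5RA and CCR3, the receptors by which eosinophils sense IL-5 and eotaxins, were not called in any comparison of days under this scaling. The background was broad: 44.2% of all tested genes were called between day 14 and day 0, 22% higher and 22.3% lower. The median log2 change of the 8 genes was 0.52, against -0.035 over all tested genes, and all 8 values were above 0, as were those of 46.3% of all genes.

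Between day 3 and day 0 none of the 8 genes was called by limma, while 19.5% of all tested genes were, 9.98% higher and 9.49% lower. An unadjusted p under 0.05 was reached by 3 of the 8 (CPA3, HDC and GATA2), and voom on the recovered fragments also called 0. The count of 0 depended on the processing: scaled to 8 pan-leukocyte genes, limma called CPA3 (0.71, adjusted p = 0.0176), HDC (0.56, adjusted p = 0.048) and GATA2 (0.73, adjusted p = 0.00953), with 29.2% of all genes called and their median at 0.195. Adjusted for RNA integrity number it called GATA2, against 15.3% of all genes, and in the deposited values it called none of the 8, against 13.1% of all genes. Under TMM scaling all 8 values were again above 0, as were those of 50.4% of all genes, with a median of 0.39 on the log2 scale against 0.003 over all tested genes. Between day 14 and day 3 only FCER1A was called, against 24.3% of all genes, 13.3% higher and 11% lower, and in the deposited values none of the 8 was. The lowest and highest values of the 3 days overlapped for every one of the 8 genes.

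Scaling decided several of these calls. In the values as deposited, without TMM factors, the median of all tested genes fell by 0.364 between day 0 and day 14, 59.1% of them were called, and CPA3 alone of the 8 was still called (log2 change 0.61, adjusted p = 0.014). MS4A2, FCER1A and ENPP3 then changed by 0.31, 0.42 and 0.27 with adjusted p of 0.198, 0.0924 and 0.335. Relative to the median of all genes the deposited values gave 0.97 for CPA3, 0.68 for MS4A2, 0.78 for FCER1A and 0.63 for ENPP3 on the log2 scale. Scaled to 8 pan-leukocyte genes, the median of all genes was 0.225 and 48.5% were called, among them 7 of the 8, all but IL5RA. Marker RNA of other blood cells changed over the same days. All 7 erythroid marker genes were higher on day 14 under each scaling, and their summed scaled FPKM had a median of 4490 (range 396 to 20800) on day 0 and 33100 (6590 to 59200) on day 14. All 7 neutrophil markers were lower under each scaling, with a summed median of 508 (244 to 3470) on day 0 and 312 (108 to 647) on day 14. The part of these cells in the results for basophil genes was not tested.

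**Figure D1:**
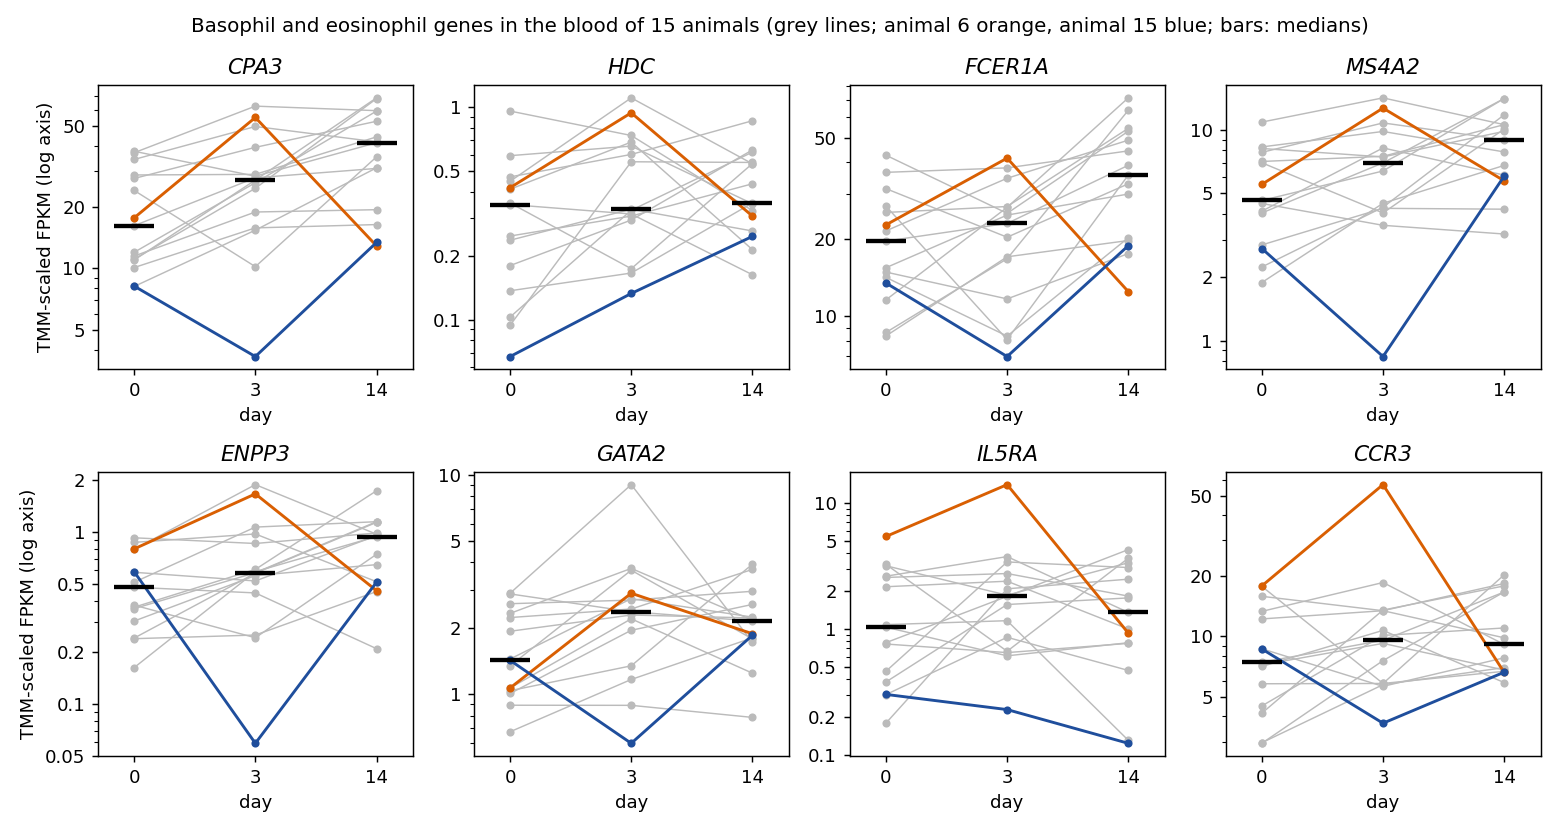
Scaled FPKM (log axis) of the 8 genes on days 0, 3 and 14 in 15 animals, 1 line per animal, with the median as a bar, animal 6 in orange and animal 15 in blue. The median of CPA3 goes from 16.2 to 27.1 to 41.3, while the line of animal 6 peaks on day 3 in all panels and that of animal 15 lies at the bottom on day 3 in all 8.

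CPA3 encodes carboxypeptidase A3, a metalloprotease stored in the granules of mast cells and basophils. Its scaled FPKM ran from 8.16 over a median of 16.2 to 37.5 on day 0, from 3.7 over 27.1 to 62.4 on day 3, and from 12.9 over 41.3 to 68.5 on day 14. The day 14 value was above the day 0 value in 14 of 15 animals, the exception being animal 6. The log2 change from day 0 to day 14 was 1.02 (SE 0.22, 95% interval 0.56 to 1.47, adjusted p = 4.32e-04 by limma), and it ranged between animals from -0.45 to 2.63. Under TMM scaling the steps on either side of day 3 were 0.49 (adjusted p = 0.127) from day 0 to day 3 and 0.53 (adjusted p = 0.0761) from day 3 to day 14, and neither was called. In the deposited values these steps were 0.45 and 0.16 (adjusted p = 0.183 and 0.531). Without animal 6, whose CPA3 went from 17.7 to 54.9 to 12.9, the later step was 0.72 with an adjusted p of 0.00909.

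HDC encodes histidine decarboxylase, which makes histamine. It was the lowest of the 8 genes, with 4 to 114 fragments per library. Its scaled FPKM had medians of 0.349, 0.332 and 0.355 on days 0, 3 and 14, within 0.0671 to 0.962, 0.133 to 1.11 and 0.163 to 0.866. The medians therefore moved little, while 12 of 15 animals were higher on day 3 than on day 0 and 10 of 15 were higher on day 14 than on day 0. The log2 change was 0.44 (SE 0.21, adjusted p = 0.14) on day 3 and 0.36 (SE 0.21, adjusted p = 0.161) on day 14, neither of which was called. In the deposited values the change on day 14 was 0.03, while under the pan-leukocyte scaling it was 0.55 and called (adjusted p = 0.0348).

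FCER1A encodes the alpha chain of the high-affinity IgE receptor, the chain that binds IgE. Its scaled FPKM ran from 8.38 over a median of 19.7 to 42.7 on day 0, from 6.96 over 23.1 to 41.6 on day 3, and from 12.5 over 35.7 to 71.6 on day 14. Days 0 and 3 thus covered nearly the same range and day 14 lay higher. The log2 change was 0.04 (SE 0.22, 95% interval -0.41 to 0.49, adjusted p = 0.925) from day 0 to day 3, 0.82 (SE 0.22, adjusted p = 0.00302) from day 0 to day 14 and 0.78 (SE 0.22, adjusted p = 0.0115) from day 3 to day 14. In the deposited values the change from day 3 to day 14 was 0.41 and not called (adjusted p = 0.104). Animal 6 was the only one of 15 in which FCER1A was lower on day 14 than on day 0, and the only one in which it was lower than on day 3. Adjusted for RNA integrity number, the change from day 0 was 0.73 and no longer called (adjusted p = 0.0671), nor was the change from day 3 (adjusted p = 0.0502), while 22.5% and 9.95% of all genes were called in these comparisons. In no animal was the RNA integrity number lower on day 14 than on day 0, so it moved with the day.

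MS4A2 encodes the beta chain of the same receptor, which amplifies its signal. On day 0 its scaled FPKM ran from 1.89 over a median of 4.63 to 10.9, followed by values from 0.842 over 6.98 to 14.2 on day 3, and from 3.21 over 8.99 to 14.1 on day 14. Day 14 was above day 0 in 12 of 15 animals, with a log2 change of 0.72 (SE 0.21, adjusted p = 0.00611). The deposited FPKM, before TMM factors, had medians of 6.58 on day 0 and 5.75 on day 14, so the order of these medians depended on the scaling. The change from day 0 to day 3 was 0.29 (SE 0.21, adjusted p = 0.354).

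FCER1G, the gamma chain that IgE receptors share with other Fc receptors, was not called between any days (log2 change -0.17, SE 0.18, adjusted p = 0.474 on day 14 vs. day 0). Of the 12 listed genes of signaling downstream of the receptor or of IgE binding, all tested, 1 was higher and 6 were lower on day 14 than on day 0. These counts were 0 and 10 in the deposited values, where the median of all genes was -0.364, and 2 and 2 under the pan-leukocyte scaling. The lowest adjusted p belonged to GAB2 (-1.24, adjusted p = 2.16e-05), LYN (-0.75, adjusted p = 9.8e-04), SYK (-0.51, adjusted p = 0.00108) and PLCG2 (-0.48, adjusted p = 0.00169). GAB2 is a docking protein, LYN and SYK are kinases and PLCG2 is a phospholipase, and all are also used by other leukocytes. Of these 4, GAB2 and LYN were still called under the pan-leukocyte scaling. The adaptor LAT was the gene that was higher (0.22, adjusted p = 0.0391), but its change was -0.19 in the deposited values. FCER2, the low-affinity IgE receptor of B cells, was lower on day 14 than on day 3 in 15 of 15 animals (-0.87, adjusted p = 0.003). In the same comparison 4 of the 7 listed B cell markers were lower and none was higher, with 7 lower in the deposited values (median of all genes -0.346) and 2 under the pan-leukocyte scaling.

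ENPP3 encodes an ectonucleotidase, CD203c, that basophils bring to their surface on activation. Per library, scaled FPKM ran from 0.163 over a median of 0.478 to 0.927 on day 0, from 0.0591 over 0.581 to 1.89 on day 3, and from 0.21 over 0.943 to 1.74 on day 14. The value was higher on day 14 than on day 0 in 11 of 15 animals (log2 change 0.62, SE 0.23, adjusted p = 0.0313). It was the call that held least: the adjusted p was 0.0626 without the replicate block, 0.0594 without a filter on low values and 0.0877 by voom, and leaving out animal 3, 7, 9, 11, 13 or 14 also ended it (0.0515 to 0.0804). The libraries held 5 to 200 fragments of ENPP3.

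GATA2 encodes a transcription factor of basophil, mast cell and progenitor differentiation. Scaled FPKM ran from 0.676 over a median of 1.43 to 2.89 on day 0, from 0.599 over 2.38 to 9.03 on day 3, and from 0.786 over 2.16 to 3.92 on day 14. The log2 change was 0.52 (SE 0.2, adjusted p = 0.0605) on day 3 and 0.43 (SE 0.2, adjusted p = 0.0784) on day 14, both relative to day 0. A single animal decided each call: without animal 15 the day 3 change was 0.64 with an adjusted p of 0.019, and without animal 8 the day 14 change was 0.51 with an adjusted p of 0.0224. Adjusted for RNA integrity number, both were called (0.66, adjusted p = 0.0288 and 0.71, adjusted p = 0.0365), as they were under the pan-leukocyte scaling (0.73 and 0.72). In the deposited values neither was, and the day 14 change was 0.04 (adjusted p = 0.88). The 9.03 of animal 8 on day 3 came from the library with the lowest mean correlation to the others (r = 0.9266). Of the other transcription factors of blood formation, TAL1 rose by 2.24 (adjusted p = 1.29e-06) and GATA1, which eosinophils, basophils, platelets and red cells share, by 1.72 (adjusted p = 1.61e-05) between day 0 and day 14. RUNX1 fell by 0.72 (adjusted p = 7.4e-06) and SPI1, the myeloid factor PU.1, fell by 0.92 (adjusted p = 2.03e-04), and in all 2 of 9 listed factors were higher and 5 lower (4 and 4 when scaled to pan-leukocyte genes).

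IL5RA encodes the IL-5-binding chain of the IL-5 receptor. It varied more between animals than the other 7 genes, with an SD on the log2 scale of 1.35, 1.3 and 1.35 on days 0, 3 and 14. Its scaled FPKM ran from 0.178 over a median of 1.03 to 5.42 on day 0, from 0.228 over 1.81 to 14 on day 3, and from 0.123 over 1.35 to 4.26 on day 14. Animals moved in opposite directions, with 8 of 15 higher and 7 lower on day 14 than on day 0. The mean log2 change was 0.53 (95% interval -0.22 to 1.28, adjusted p = 0.338) on day 3 and 0.16 (95% interval -0.59 to 0.9, adjusted p = 0.757) on day 14, and in the deposited values the second was -0.20.

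CCR3 encodes the receptor of eotaxins, present on eosinophils and basophils. Its scaled FPKM ran from 2.94 over a median of 7.43 to 17.8 on day 0, from 3.7 over 9.55 to 56.7 on day 3, and from 5.89 over 9.11 to 20.2 on day 14. The value of 56.7 belonged to animal 6, and the days overlapped. The log2 change was 0.33 (SE 0.25, adjusted p = 0.389) on day 3 and 0.37 (SE 0.25, adjusted p = 0.24) on day 14, and neither was called. The change on day 14 was -0.03 in the deposited values and 0.68, a call, under the pan-leukocyte scaling (adjusted p = 0.0213).

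**Figure D2:**
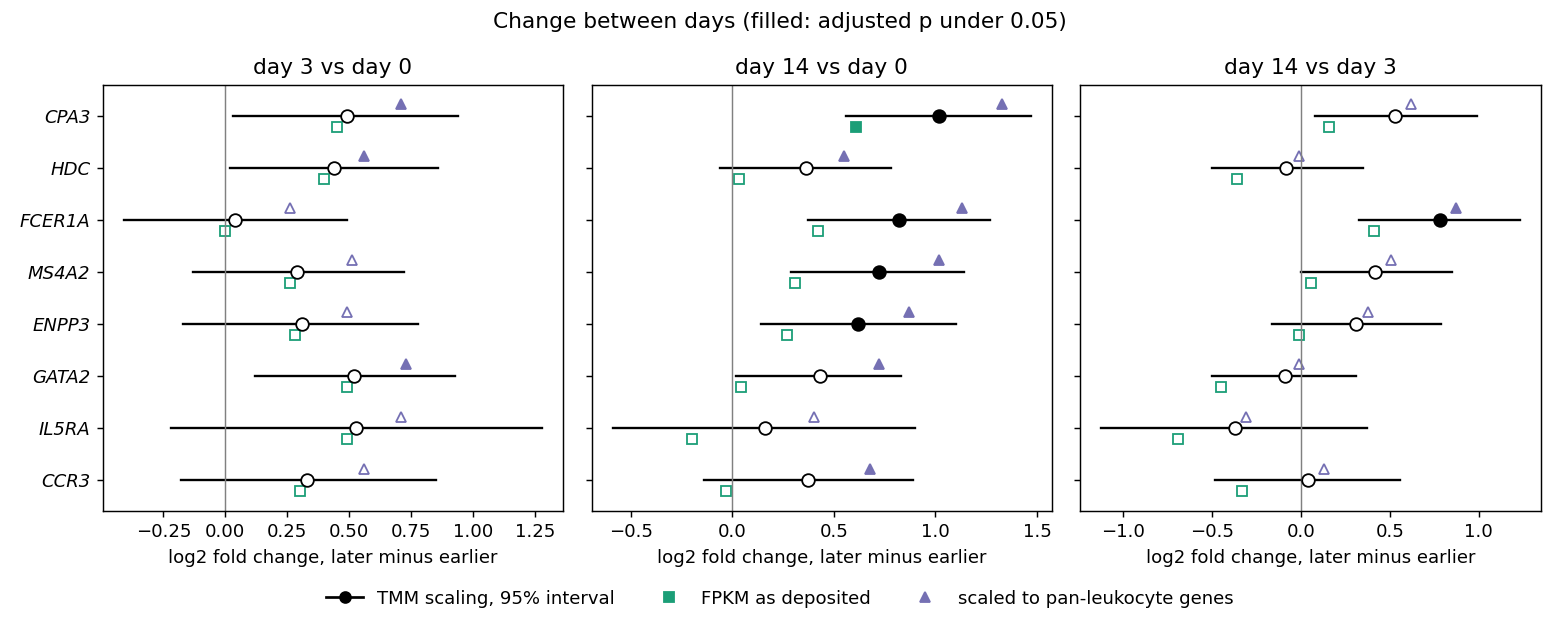
Log2 fold change (later minus earlier day) of the 8 genes in the 3 comparisons under TMM scaling (circles, with 95% intervals), as deposited (squares) and scaled to 8 pan-leukocyte genes (triangles), filled where the adjusted p is under 0.05. For day 14 vs. day 0 the circles of CPA3, FCER1A, MS4A2 and ENPP3 are filled, and of the squares only that of CPA3.

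The partner genes of these receptors did not follow 1 direction. CSF2RB, the beta chain that the receptors for IL-3, IL-5 and GM-CSF share, was lower on day 14 than on day 0 (-0.74, SE 0.21, adjusted p = 0.00595). It was 1 of 4 lower genes among 10 tested cytokine receptor and signaling genes of type 2 immunity, with none higher. In the deposited values none was higher and 9 were lower, but there the median of all genes was -0.364 and 59.1% were called. Scaled to pan-leukocyte genes 3 were higher and 2 lower, and CSF2RB was not called (adjusted p = 0.0624). IL1RAP, the accessory chain of the IL-33 receptor, fell by 0.99 (adjusted p = 2.38e-04), the transcription factor STAT5B fell by 0.58 (adjusted p = 5.17e-04) and IL4R fell by 0.28 (adjusted p = 0.00274), the last with a change of 0.03 under the pan-leukocyte scaling. On day 3 the factor STAT6 was higher (0.30, adjusted p = 0.00408), IL1RAP (-0.82, adjusted p = 0.00531) and IL7R (-0.31, adjusted p = 0.0332) were lower. STAT6 was not called in the deposited values (0.27, adjusted p = 0.178), and IL7R was called neither there (adjusted p = 0.0814) nor under the pan-leukocyte scaling (-0.09, adjusted p = 0.656). Of 13 listed ligands only 5 were abundant enough to be tested, and neither IL3, IL13 nor the eotaxins CCL11 and CCL26 were among them. The eotaxin CCL24 was lower on day 14 than on day 3 in 12 of 15 animals (-1.06, SE 0.35, adjusted p = 0.028). CCL5, a chemokine of T and NK cells that CCR3 binds, was higher on day 14 in 14 of 15 animals (1.33, adjusted p = 1.96e-06), and 5 of 6 NK cell markers were higher too. IL4 was also higher (0.65, SE 0.25, adjusted p = 0.036), but not called in the deposited values (0.30, adjusted p = 0.314).

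Among 16 further basophil and mast cell genes, 12 were tested, and 6 were higher and 1 was lower on day 14 than on day 0. In the deposited values 2 were higher and 2 lower, and scaled to pan-leukocyte genes 10 were higher and none lower. SLC45A3, a solute carrier, rose by 0.90 (adjusted p = 5.5e-05), CMA1, mast cell chymase, by 0.96 (adjusted p = 5.8e-04), and SLC18A2, the vesicular transporter that loads histamine and other monoamines, by 0.71 (adjusted p = 8.75e-04). SLC18A2 was not called in the deposited values (0.31, adjusted p = 0.097). CD200R1, an inhibitory receptor, fell by 0.41 (adjusted p = 9.31e-04), and was not called under the pan-leukocyte scaling (adjusted p = 0.41). SLC18A2 was already higher on day 3 in 15 of 15 animals (0.95, adjusted p = 3.02e-04), in a comparison in which all 6 platelet markers were higher as well. The scaled FPKM of CMA1 ran from 3.01 over a median of 7.98 to 17.8 on day 0 and from 7.85 over 15.2 to 37.9 on day 14. KIT, the stem cell factor receptor of mast cells and progenitors, was not called (0.52, adjusted p = 0.125 on day 14).

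Among 13 further eosinophil genes, 10 were tested, and on day 14 only ALOX15 was higher than on day 0, while CEBPE and ADGRE1 were lower. In the deposited values, with the median of all genes at -0.364, 1 was higher and 3 were lower, and under the pan-leukocyte scaling 2 were higher and 1 was lower. ALOX15, a lipoxygenase of eosinophils that is also known from maturing red cells, rose by 1.72 (SE 0.28, adjusted p = 1.23e-05) and by 0.98 on day 3 (adjusted p = 0.0133). CEBPE, a factor of granulocyte maturation, fell by 1.29 (adjusted p = 0.0212). Its scaled FPKM on day 0 reached 62.2 in animal 7 over a median of 2.54, and its median log2 change was -0.62. ADGRE1, an adhesion receptor of eosinophils and macrophages, fell by 0.90 (adjusted p = 0.0317), and was not called under the pan-leukocyte scaling (adjusted p = 0.109). The genes for granule proteins differed widely in level. RNASE2, eosinophil-derived neurotoxin, had median scaled FPKM of 10.6, 15.4 and 10.4 on days 0, 3 and 14. EPX, eosinophil peroxidase, had lower medians of 0.095, 0.194 and 0.108, and PRG2, the major basic protein, had medians of 0.434, 2.59 and 0.795 with single libraries up to 99.5.

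On day 0 the levels per gene length fell in the order FCER1A, CPA3, CCR3, MS4A2, GATA2, IL5RA, ENPP3 and HDC. FCER1A was above CPA3 in 10 of 15 animals (mean log2 difference 0.14, SD 0.51 over animals), and GATA2 was above IL5RA in 8 of 15 (0.45, SD 1.32). MS4A2 was above GATA2 in 15 of 15 animals (1.62, SD 0.49), and CPA3 was above CCR3 in 13 of 15 (1.12, SD 0.82). CCR3 was above MS4A2 in 11 of 15 (0.67, SD 0.78). ENPP3 was above HDC (0.54, SD 0.72) and IL5RA above ENPP3 (1.07, SD 1.13) in 12 of 15 each. The SD is the spread over animals and not the error of the mean, and these differences were not tested.

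The animals differed from each other in 5 of the 8 genes when days were taken into account (moderated F test by limma over 14 animal terms): CPA3 (adjusted p = 0.00446), MS4A2 (adjusted p = 0.0122), IL5RA (adjusted p = 0.0225), GATA2 (adjusted p = 0.0307) and FCER1A (adjusted p = 0.049). The same test called 29.3% of all tested genes. HDC (adjusted p = 0.091), ENPP3 (adjusted p = 0.148) and CCR3 (adjusted p = 0.149) were not called. The animal accounted for 64.3% of the variance around the day means for CPA3 and 45% for CCR3, with the rest between, against a median of 47.9% over all genes and 33.3% expected with no animal effect. Animal 15 had averages over days that were the lowest for CPA3, HDC, MS4A2, FCER1A and IL5RA. Its CPA3 deviated by -1.69 and its IL5RA by -2.16 on the log2 scale. By the paper, animal 15 alone was in quarantine during Hurricane Danny, a possible further stressor, and the part of this exposure was not tested. Without animal 15 only MS4A2 (adjusted p = 0.0217) and GATA2 (adjusted p = 0.0247) differed between animals, while 24.7% of all genes did. The highest average was that of animal 12 for CPA3 (1.09) and MS4A2 (0.93) and that of animal 6 for IL5RA (1.64) and CCR3 (1.03).

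**Figure D3:**
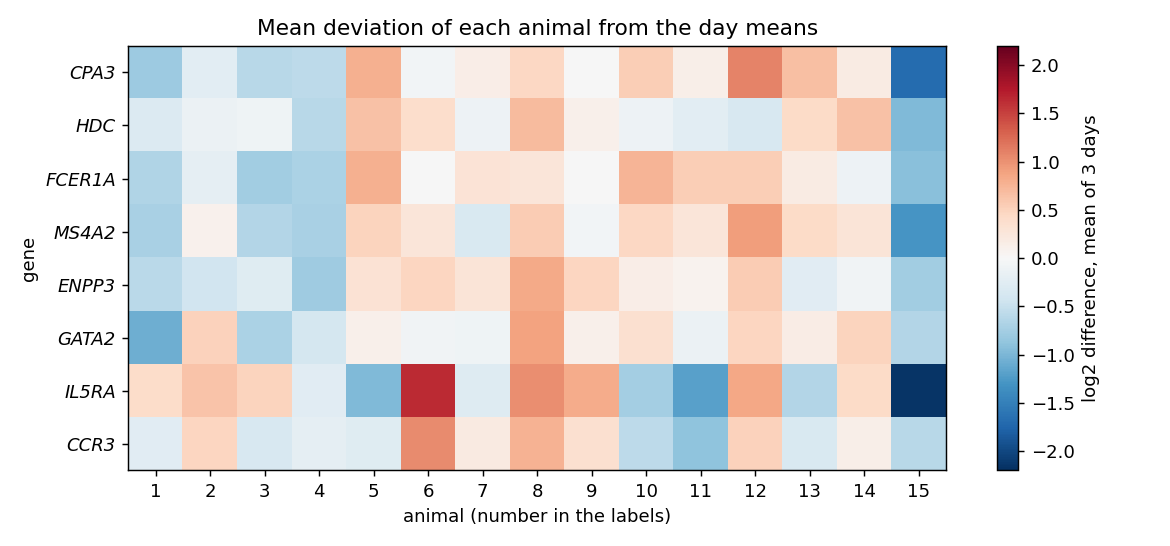
Mean deviation of each of the 15 animals from the day means (log2, mean of 3 days; red higher, blue lower) for the 8 genes. Animal 15 is blue in all rows and animal 6 is darkest red in the rows of IL5RA and CCR3, at 1.64 and 1.03.

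Animal 6 held the highest IL5RA and CCR3 on day 0 and on day 3, and on day 14 it ranked 10 and 14 of 15. IL5RA went from 5.42 to 14 to 0.925 scaled FPKM in this animal and CCR3 from 17.8 to 56.7 to 6.62. Eosinophil genes outside the list had the same course there. EPX went from 4.29 to 7.19 to 0.484, OLIG2 from 2.34 to 4.01 to 0.562 and SMPD3 from 2.36 to 3.49 to 0.728. The day 3 peak was not limited to eosinophil genes. Each gene of the list that had a row was highest on day 3 in this animal. CPA3 went from 17.7 to 54.9 to 12.9 and FCER1A from 22.8 to 41.6 to 12.5. MS4A2 (5.52, 12.7 and 5.74) and GATA2 (1.07, 2.89 and 1.89) ended above day 0. Outside the list, PRSS57 went from 13.7 to 43.9 to 12.8, while HRH4 went from 5.43 to 5.3 to 2.2. The CPA3 and FCER1A of animal 6 were lowest of the 15 animals on day 14, at 12.9 and 12.5. Without animal 6 the day 14 vs. day 0 change was 0.34 for IL5RA (adjusted p = 0.452) and 0.50 for CCR3 (adjusted p = 0.0671), and 1.12 for CPA3 (adjusted p = 4.39e-05).

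The likeness of the 8 genes to each other was measured across the 45 samples, with day means removed. These correlations describe samples that share animals and scaling, and they carry no test. Among the 8, CPA3 was most alike to MS4A2 (Pearson r = 0.913) and FCER1A (r = 0.876), and ENPP3 and GATA2 were closest to MS4A2 (r = 0.797 and 0.805). IL5RA and CCR3 were, of the 8, most alike to each other (r = 0.857) and less to CPA3 (r = 0.441 and 0.535) or FCER1A (r = 0.319 and 0.414). The lowest r of all pairs was that of GATA2 and IL5RA (r = 0.255). HDC had r = 0.652 to MS4A2 and 0.499 to CCR3, and ENPP3 had r = 0.651 to CCR3 and 0.524 to IL5RA. No clear division into sets was therefore seen over all 8 genes. Without the 3 libraries of animal 15 the values were 0.895 for CPA3 and MS4A2, 0.883 for IL5RA and CCR3 and 0.267 for CPA3 and IL5RA.

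**Figure D4:**
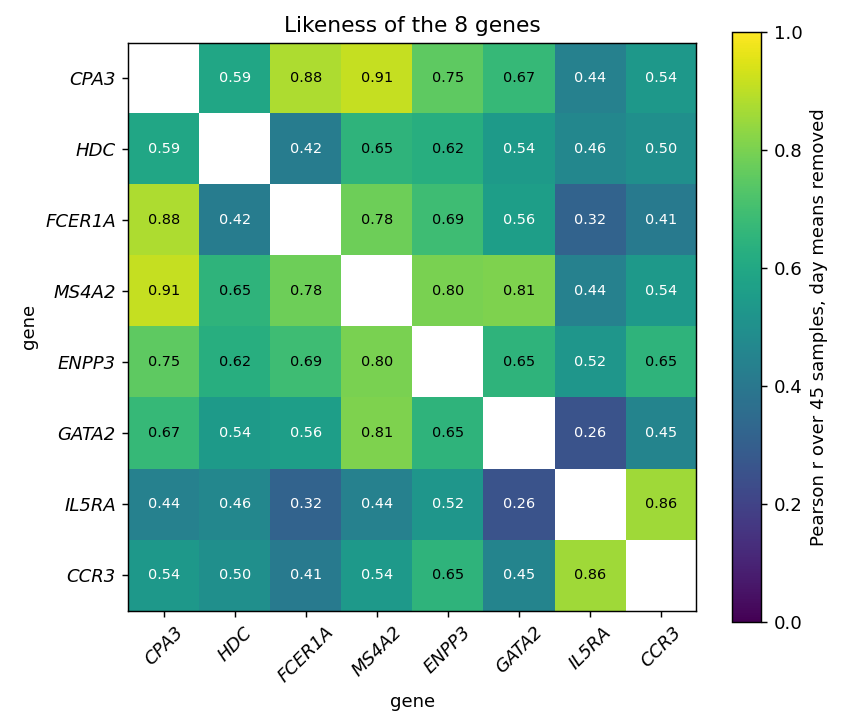
Pearson r between the 8 genes over 45 samples with day means removed (colour scale from 0 to 1). CPA3, FCER1A and MS4A2 are bright against each other (0.78 to 0.91), and so is IL5RA against CCR3 (0.86).

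The genes most like each member, out of all 18753 tested and at most 3 for each, were named by the same measure. For CPA3 they were PRSS57, a serine protease of myeloid granules (r = 0.92), MS4A2 and IL4 (r = 0.883), and for FCER1A they were CPA3, IL4 (r = 0.861) and PRSS57 (r = 0.833). For MS4A2 they were C25H1orf186 (r = 0.917), CPA3 and PRSS57 (r = 0.897). Among the genes most like GATA2 were ZC3H12C (r = 0.862) and C25H1orf186 (r = 0.818). ENPP3 was most like EPDR1 (r = 0.846), DSG2 (r = 0.819) and IL4 (r = 0.799), and among those most like HDC were LTC4S, leukotriene C4 synthase (r = 0.716), and SLC30A2 (r = 0.686). IL5RA was most like LOC103234345 (r = 0.959), the transcription factor OLIG2 (r = 0.951) and the channel TRPC6 (r = 0.95), and CCR3 was most like IL5RA, LOC103233788 (r = 0.851) and IL1RL1, the IL-33 receptor (r = 0.836).

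The changes of these neighbours between days varied. From day 0 to day 14 PRSS57 rose by 0.76 (SE 0.21, adjusted p = 0.00411), C25H1orf186 by 0.81 (SE 0.2, adjusted p = 0.00165), SLC30A2 by 0.86 (SE 0.21, adjusted p = 0.00131) and EPDR1 by 0.89 (SE 0.21, adjusted p = 8.14e-04). LTC4S (0.79, SE 0.34, adjusted p = 0.0604), DSG2 (0.43, SE 0.22, adjusted p = 0.105) and ZC3H12C (0.30, SE 0.16, adjusted p = 0.114) were not called. In the deposited values PRSS57 (adjusted p = 0.138), C25H1orf186 (adjusted p = 0.0765) and SLC30A2 (adjusted p = 0.0755) were not called. EPDR1 (0.77, adjusted p = 0.0083), SLC30A2 (0.63, adjusted p = 0.0312) and C25H1orf186 (0.60, adjusted p = 0.0358) were already higher on day 3 than on day 0. For that comparison SLC30A2 (adjusted p = 0.0951) and C25H1orf186 (adjusted p = 0.0588) were not called in the deposited values. Of the neighbours of IL5RA and CCR3, OLIG2 had a change of 0.07 (SE 0.3, adjusted p = 0.863), LOC103234345 of 0.31 (SE 0.34, adjusted p = 0.485), LOC103233788 of 0.14 (SE 0.34, adjusted p = 0.755), TRPC6 of 0.24 (SE 0.3, adjusted p = 0.532) and IL1RL1 of 0.23 (SE 0.22, adjusted p = 0.426), none of which was called. Since they were chosen for their likeness to the members in the same samples, they are no independent evidence.

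FCER1A is also expressed by dendritic cells in some species. Its r to 8 dendritic cell markers lay between -0.375 (FLT3) and 0.197 (CLEC4C), with -0.015 for CD1C. On day 14 vs. day 0, 2 of these 8 markers were higher and 2 lower (0 and 4 in the deposited values, with the median of all genes at -0.364, and 3 and 0 under the pan-leukocyte scaling). CPA3 had an r of 0.846 to CMA1 and of 0.725 to the histamine receptor HRH4, and of 0.093 to KIT. GATA2 had an r between -0.202 and -0.078 to the 7 erythroid markers, and between -0.186 (AZU1) and 0.275 (MYB) to the 8 progenitor markers.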

How the data were processed

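The deposited values were FPKM per gene, 1 table per sample. The authors demultiplexed with bcl2fastq 2.17, aligned paired-end reads of stranded, ribosome- and globin-depleted libraries with STAR to Chlorocebus_sabeus 1.1, and counted with HTSeq; the program that made FPKM is not given in the sources used here. All values above 0 (100%) were whole multiples of 1 fragment within 0.02, so fragments were recovered. Genes with over 0.5 CPM (recovered fragments scaled to library size) in at least 3 samples (18753) were tested with limma 3.58.1 (R 4.3.3) on log2(FPKM divided by a TMM factor, plus 0.1), with day and, as the rule compares days within animals, the animal as a block; p-values were adjusted by Benjamini-Hochberg. Residuals of 1 animal's samples correlated by 0.329 on average, those of different animals by -0.0231; no libraries were identical. Fold changes understate low genes. The scripts were tested on simulated data. Members and lists were chosen with earlier results of these data known. All members were named, with the 4 lowest adjusted p per other list and comparison at most; some such genes are given only as counts. EPX, PRG2, RNASE2, KIT, FCER1G, SMPD3, HRH4 and the cell markers were named after their values were seen. Alternatives were other scalings, offsets and filters, no block, voom and leaving out animals. The RNA integrity number came from the study's sample sheet and served as a covariate only. In no animal was it lower on day 14 than on day 0, so that adjusting for it cannot be fully told apart from the day. For each member the 3 genes with the highest Pearson r were taken, of which 1 gene is not reported here. Sequences are not shown.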

Additional observations from a re-analysis of the deposited data

How the results depend on the processing

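The calls of CPA3, FCER1A and MS4A2 for day 14 vs. day 0 held when any single animal was left out (highest adjusted p 0.0019, 0.0115 and 0.0211), and adding 0.01 or 1 before the logarithm changed no call between days. In the FPKM as deposited, 1 member was called for day 14 vs. day 0 and 0 for day 14 vs. day 3 (9591 genes), and changes turned sign for IL5RA (-0.20) and CCR3 (-0.03) between days 0 and 14 and for ENPP3 (-0.01) and CCR3 (-0.33) between days 3 and 14. Scaled to 8 pan-leukocyte genes, 7 members were called for day 14 vs. day 0 (48.5% of all genes) and 3 for day 3 vs. day 0 (29.2%). Adjusted for RNA integrity number, 1, 4 and 0 members were called for day 3 vs. day 0, day 14 vs. day 0 and day 14 vs. day 3, against 2868, 4212 and 1866 genes of all tested, and HDC (0.07), GATA2 (0.05, both day 14 vs. day 3) and FCER1A (0.00, day 3 vs. day 0) turned sign. Without the replicate block 2355 genes were called for day 3 vs. day 0 and 2576 for day 14 vs. day 3, and ENPP3 alone of the members lost its call (adjusted p = 0.0626). The members that differed between animals numbered 3 with 1 added, without a filter and by voom, counts that are given here without the share of all genes. Leaving out 1 animal gave 0 to 1 members for day 3 vs. day 0, against 2806 to 3729 of all tested genes. For day 14 vs. day 0 it gave 3 to 5 members, against 7503 to 8450 genes. For day 14 vs. day 3 it gave 1 to 2 members, against 2796 to 5214 genes (2796 without animal 8). The members that differed between animals then numbered 2 to 5, and the 2 came without animal 15, where 24.7% of all genes differed. Changes that crossed 0 in these omissions ranged from -0.04 to 0.17 for FCER1A on day 3 vs. day 0, from -0.06 to 0.34 for IL5RA between days 0 and 14, and between days 3 and 14 from -0.08 to 0.26 for CCR3, -0.21 to 0.06 for GATA2 and -0.17 to 0.01 for HDC; none was called. The cause of these shifts was not tested. Depth limits HDC and ENPP3 most, with as few as 4 and 5 fragments per library.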
